A study of Homo sapiens with 12 samples.

Results

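The 3 naive-state libraries labelled RUES2 (spelled RUES-2 in part of the labels) were compared with the 3 naive-state libraries labelled H9, gene by gene, over the autosomes. Both are human embryonic stem cell lines. The comparison used 6 of the 12 libraries of the series, and 12740 of the 22501 autosomal gene symbols in the tables, those with at least 1 FPKM (fragment counts divided by transcript length and by the library total) in at least 3 of the 6 libraries. The series, whose title concerns naive pluripotency reached through transient mTOR inhibition, holds 4 groups of 3 replicates, which its design text calls biological: primed and naive cells of each line label. Naive cells of both labels grew in 1 medium and were passaged every 3 days. It held 5 mM glucose, 1 mM glutamine, 18 µg/mL insulin, 5 mg/mL bovine serum albumin, LIF at 20 ng/mL, PD0325901, which inhibits MEK, at 1 µM, and CHIR99021, which inhibits GSK3, at 3 µM. No mTOR inhibitor is named in that medium. The naive H9 cells were at passages 27 to 31 and the naive RUES2-labelled cells at passages 24 to 26. Primed H9 cells were at passages 31 to 35, primed RUES2 cells at 30 to 33. These were kept on a feeder layer of mouse embryonic fibroblasts treated with mitomycin C, and received basic FGF at 4 ng/mL. Colonies were picked by hand, so cells of the feeder layer or differentiated cells at colony edges can be in a library, and polyadenylated RNA was sequenced.

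The labelled cell type was checked first. Transcripts of 7 genes that define pluripotent cells were present in all 6 naive libraries: POU5F1 between 417 and 587 FPKM, SOX2 between 34.0 and 59.8, NANOG between 41.2 and 459, LIN28A between 253 and 377, SALL4 between 24.4 and 42.9, DPPA4 between 100.2 and 121, and TDGF1 between 69.0 and 134. In primed H9 and primed RUES2, SOX2 was at means of 101 and 108 FPKM and NANOG at 77.7 and 50.8, so their presence does not mark the naive state. KLF17, a transcription factor of the human preimplantation epiblast, was at 0.174 FPKM or less in each of the 6 libraries. The line label was checked in genes outside the autosomes. In that check 3 of the 12 libraries did not match the primed libraries of their line label, and 0 of these were labelled H9. The reference was the majority of the 3 primed libraries of each label, so naive RUES2-labelled libraries were among the 3. Line label and cell identity therefore cannot be told apart in what follows, the direction of each difference included, and the libraries are called by their label.

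In human cells, naive and primed pluripotency are the states of the preimplantation and the later epiblast. Both rest on OCT4 (POU5F1) and SOX2, and the naive state is sustained by LIF acting through STAT3, with MEK/ERK signalling blocked. Inhibition of GSK3 stabilizes beta-catenin, which then switches on WNT target genes. Embryonic stem cell lines differ from each other in genotype and can differ in imprinting, in DNA methylation and in parts of chromosomes gained during culture, so a comparison of 2 line labels in 1 medium shows how far cells with the same name of state resemble each other.

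The naive RUES2-labelled libraries differed from naive H9 in many genes. At an adjusted p under 0.05 (limma on log2(FPKM + 1), Benjamini-Hochberg over all 12740 genes), 2967 genes were called, which is 23.3% of those tested. Of these, 1955 were higher (15.3%) and 1012 were lower (7.94%) in the RUES2-labelled libraries, with a log2 difference of at least 1 in size for 419 and 104 of them. Among genes called with any 1 library left out, short RNAs aside, the increases were led by MYC and genes nearly silent in H9 such as LPPR4, and the decreases by CBR1, NDN and SMIM3. The 2 groups did not overlap for 5943 genes (46.6%), and all 2967 called genes were among these. The median log2 difference over all tested genes was 0.02.

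The count depended on single libraries. Without naive H9 replicate 1, 2 or 3 it was 923, 1210 or 1476 genes, and without RUES2-labelled replicate 1, 2 or 3 it was 1648, 2570 or 2813. Each of these fits compared 2 libraries with 3, so a smaller count can also come from the smaller number of libraries. In the full comparison and with any 1 of the 6 libraries left out, 861 genes (626 higher and 235 lower) were called. Unless a library is named beside a gene below, its call was among these 861. A fit of all 12 libraries together called 2108 genes, 1548 higher and 560 lower. SALL1, EPHA2, S100A4, MVD, FOXM1, HLA-C, NNAT, CDKN1A, TYMS, UHRF1, UTF1, SPRY1, CER1 and ID3, all described below, were not called in that fit (adjusted p between 0.0518 and 0.384). The median SD of log2(FPKM + 1) within a group was 0.08 in naive H9 and 0.12 in the RUES2-labelled libraries. Pearson correlations across genes, which are not independent replicates, were 0.961 to 0.970 within naive H9, 0.951 to 0.960 within the RUES2-labelled libraries and 0.922 to 0.950 between the groups. The tables hold no read counts. Read as 2 SD of Poisson counting on either side, the confidence bounds deposited beside each FPKM put a gene at 1 to 2 FPKM at a median of 64.2 to 112 fragments per naive library.

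The 3 RUES2-labelled libraries were not alike in the size of their difference from H9. Of the 419 genes called higher by a log2 difference of at least 1, replicate 2 was highest in 68.0% and replicate 3 lowest in 60.1%, and 50.1% followed the order replicate 2, replicate 1, replicate 3. Over all tested genes the same order was found in 22.5%. Of the 104 genes lower by at least 1, 50.0% followed the reverse order, against 23.2% of all tested genes. Set against the mean difference of the group, the median excess over H9 among the 419 genes was 0.858 of it in replicate 1, 1.38 in replicate 2 and 0.720 in replicate 3. Over all tested genes these shares were 0.920, 1.27 and 0.789, and among the 104 lower genes they were 1.00, 1.07 and 0.930. Whether the libraries hold different mixtures of cells was not tested, and in bulk RNA a smaller number of expressing cells cannot be told apart from less RNA per cell.

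**Figure D1:**
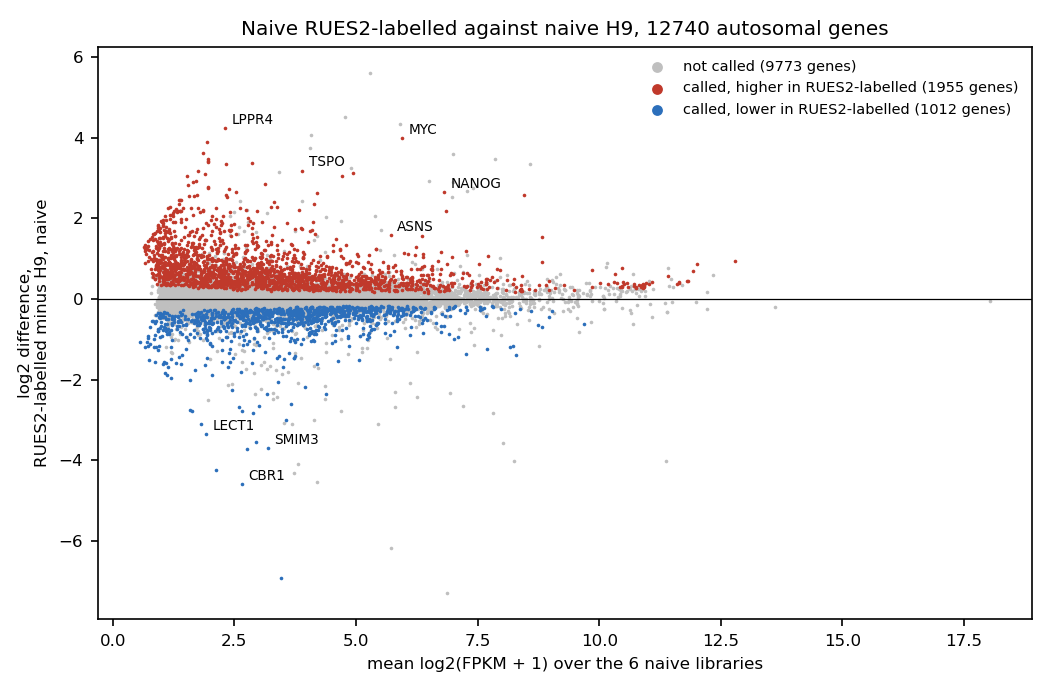
Each point is 1 autosomal gene: its mean log2(FPKM + 1) over the 6 naive libraries on the horizontal axis and its log2 difference, RUES2-labelled minus H9, on the vertical axis. The 1955 genes called higher are red, the 1012 called lower are blue, and the largest called differences lie at 4.23 (LPPR4) and 3.98 (MYC) above 0 among the named genes.

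The 12 genes most raised in the RUES2-labelled libraries under the naming rule had log2 differences between 3.12 (SERPINF1) and 4.23 (LPPR4). MYC, the transcription factor that drives growth and ribosome production, was at 14.3, 14.7 and 14.5 FPKM in naive H9 and at 199, 427 and 169 in the RUES2-labelled replicates 1, 2 and 3. All 3 RUES2-labelled libraries were far above every H9 library, and replicate 2 was the highest. The log2 difference was 3.98 ± 0.33 (SE, n = 3 and 3, adjusted p = 0.00258), an 18.3-fold difference of the means. MYC lies on chromosome 8 at 128748315 to 128753680 (hg19). Only 2 other genes with starts within 1 Mb were tested, apart from short RNAs, and their log2 differences were 0.26 and 0.35. PVT1, the noncoding RNA gene beside MYC, was at 3.62, 3.11 and 3.71 FPKM in H9 and at 4.34, 5.60 and 4.23 in the RUES2-labelled libraries, and was not called (adjusted p = 0.0748).

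LPPR4, a phospholipid phosphatase-related membrane protein of neurons, was at 0.155, 0.0687 and 0.216 FPKM in H9 and at 18.3, 33.3 and 13.9 in the RUES2-labelled libraries (log2 difference 4.23 ± 0.29, adjusted p = 0.00131). Its neighbour on chromosome 1, PALMD, which encodes palmdelphin, behaved alike, at 0.152, 0.0672 and 0.0497 FPKM against 5.98, 11.3 and 4.44 (log2 difference 2.83, adjusted p = 0.00363). In both genes the groups were far apart and replicate 2 was highest. DSCR8, a noncoding gene of chromosome 21, was listed at 0 in all 3 H9 libraries and at 14.3, 9.69 and 18.6 FPKM in the RUES2-labelled libraries (log2 difference 3.88 ± 0.21, adjusted p = 0.000671). Here replicate 2 was the lowest of the RUES2-labelled libraries. LOC100130964 was at 0, 0 and 0.0934 FPKM against 11.6, 25.6 and 5.20 (adjusted p = 0.00679).

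The tyrosine kinase gene MATK was at 0.211, 0.0825 and 0.190 FPKM in H9 and at 9.57, 22 and 7.65 in the RUES2-labelled libraries (log2 difference 3.47). The copine gene CPNE7 was at 0.162, 0.119 and 0.291 against 9.53, 19.8 and 7.94 (3.39), and SLC8A2, a sodium-calcium exchanger of neurons, at 0.138, 0.0759 and 0.156 against 9.18, 19.6 and 3.96 (3.17). MATK, CPNE7 and SLC8A2 shared the order of replicates seen in MYC. S100A14, a calcium-binding protein of epithelia, stood apart from them: it was at 0.158, 0.0621 and 0.345 FPKM in H9 and at 23.8, 6.76 and 9.53 in the RUES2-labelled libraries (3.42), with replicate 1 highest. The serpin genes SERPINI1 (neuroserpin) and SERPINF1 (pigment epithelium-derived factor) had log2 differences of 3.38 and 3.12, the chaperone cofactor DNAJC12 of 3.35, and TSPO, the translocator protein of the outer mitochondrial membrane, of 3.18. SERPINF1 was already transcribed in H9, at 9.29, 7.20 and 12.2 FPKM, and was at 75.3, 131 and 71.3 in the RUES2-labelled libraries.

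The 12 most lowered genes included 5 that were under 0.5 FPKM in all 3 RUES2-labelled libraries, CBR1, LECT1, KHDC3L, C9orf64 and GLT1D1, and others that were lower but still present, such as SMIM3. CBR1, carbonyl reductase of chromosome 21 (37442285 to 37445462, hg19), was at 28.8, 37.0 and 25.0 FPKM in H9 and at 0.395, 0.0958 and 0.360 in the RUES2-labelled libraries. Every H9 library was more than 60 times above every RUES2-labelled library. The log2 difference was -4.60 ± 0.17 (adjusted p = 9.62e-05). None of the 9 other tested genes within 1 Mb was called lower, and their median log2 difference was 0.18. In primed cells CBR1 was present under both labels, at means of 28.4 FPKM in H9 and 48.8 in RUES2.

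SMIM3, a small membrane protein gene of chromosome 5, was at 32.9, 32.1 and 29.9 FPKM in H9 and at 1.35, 1.31 and 1.96 in the RUES2-labelled libraries (log2 difference -3.69 ± 0.11, adjusted p = 6.63e-05). LECT1, which encodes chondromodulin, was at 10.5, 9.17 and 13.8 against 0.199, 0.241 and 0.113 (-3.34), although it was the more abundant of these transcripts in primed cells, at means of 69.8 FPKM in H9 and 82.6 in RUES2. KHDC3L, a gene of the oocyte's subcortical maternal complex, was at 7.27, 8.97 and 12.2 against 0.302, 0.122 and 0.172 (-3.10). In primed cells KHDC3L was near 0 under both labels, at means of 0.0824 and 0.0682 FPKM. Naive H9 was thus the only 1 of the 4 groups with a KHDC3L mean above 1 FPKM.

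C9orf64, now named QNG1 and encoding queuosine 5'-phosphate N-glycosylase, was at 7.35, 6.66 and 7.11 FPKM in H9 and at 0.158, 0.191 and 0.186 in the RUES2-labelled libraries (-2.77). The glycosyltransferase-domain gene GLT1D1 was at 7.07, 7.14 and 6.12 against 0.196, 0.119 and 0.168 (-2.74). In these genes the 3 libraries of each label lay close together, unlike the genes of the MYC pattern. CSRP1, a LIM-domain protein of muscle and stroma, varied in H9 (20.0, 9.84 and 32.2 FPKM) but stayed above the RUES2-labelled libraries (1.67, 1.22 and 2.68), with a log2 difference of -2.81. STMN2, a microtubule regulator of neurons, differed by -2.67 and the ADP-ribosyltransferase gene ART5 by -2.65. LOC650368 (-2.99) and the olfactory receptor pseudogene OR7E12P (-2.78) overlap each other on chromosome 11, so their reads cannot be told apart, and OR7E12P belongs to a family of near-identical copies.

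**Figure D2:**
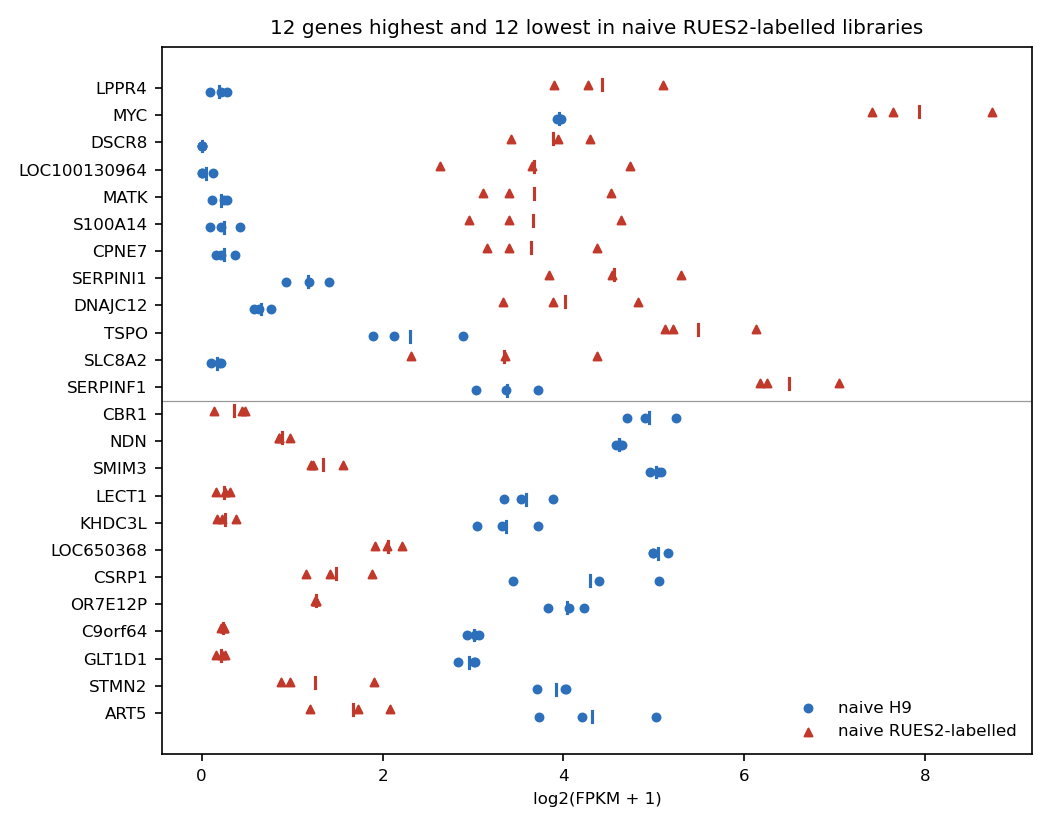
Each row is 1 gene of the 12 most raised and 12 most lowered under the naming rule; points are the 3 naive H9 (blue circles) and 3 naive RUES2-labelled libraries (red triangles) on a log2(FPKM + 1) axis, and the vertical ticks are group means. No row has overlapping groups, which the naming rule required, and DSCR8 is listed at 0 in every naive H9 library.

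Because CBR1 was present in H9 and under 1 FPKM in the RUES2-labelled libraries, the 250 bases before its start are printed here with each CG dinucleotide in capitals, the site of DNA methylation. The sequence is that of RefSeq (GRCh38.p14, plus strand, chr21:36069774-36070023) and holds 23 CG dinucleotides. The median over the 27305 genes with a RefSeq promoter window is 12.
CBR1: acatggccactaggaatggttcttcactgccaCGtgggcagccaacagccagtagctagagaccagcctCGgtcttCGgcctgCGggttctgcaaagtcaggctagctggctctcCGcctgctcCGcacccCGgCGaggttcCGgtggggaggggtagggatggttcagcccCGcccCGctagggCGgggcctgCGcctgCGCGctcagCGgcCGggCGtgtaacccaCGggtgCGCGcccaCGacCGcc
The same window of C9orf64 also holds 23 CG dinucleotides, that of KHDC3L 15 and that of LECT1 10. Methylation was not measured in these libraries, and the counts describe the sequence alone.

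Of the pluripotency factors, NANOG was higher and SOX2 and ZFP42 lower in the RUES2-labelled libraries. NANOG, the homeodomain factor of the epiblast, was at 41.2, 47.4 and 43.0 FPKM in naive H9 and at 248, 459 and 193 in the RUES2-labelled libraries, without overlap and with replicate 2 highest. Its log2 difference was 2.65 ± 0.30 (adjusted p = 0.00457), a 6.84-fold difference of the means. SOX2 was at 59.0, 59.8 and 57.1 FPKM in H9 and at 39.1, 34.0 and 43.5 in the RUES2-labelled libraries and was lower by a log2 difference of -0.59 ± 0.09 (adjusted p = 0.00961). ZFP42 (REX1), a zinc-finger marker of undifferentiated cells, was at 67.6, 65.9 and 60.02 against 39.99, 35.5 and 30.7 (-0.85, adjusted p = 0.00522). POU5F1, at 417, 439 and 451 against 534, 587 and 458 FPKM, did not overlap but was not called (0.27 ± 0.10, adjusted p = 0.101).

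Of the 22 core pluripotency genes, all of them tested, 2 were higher and 3 lower, which is 9.09% and 13.6% against 15.3% and 7.94% of all genes. Their median log2 difference was 0.13, against 0.02 over all genes, and 1 and 2 were called without naive H9 replicate 1. UTF1, a chromatin factor, was the other higher gene, at 0.331, 0.279 and 0.433 FPKM against 3.20, 1.41 and 1.87, but its call was lost without naive H9 replicate 1 (adjusted p = 0.0562). The neighbours of NANOG on chromosome 12 were not called: GDF3, a growth factor of the epiblast, was at 35.9, 46.4 and 36.8 FPKM against 86.6, 57.0 and 51.3 (adjusted p = 0.0629), and the difference of DPPA3 was not called (adjusted p = 0.246). DPPA3, also known as STELLA, was at 3.73, 2.55 and 3.01 in H9 and at 11.4, 4.79 and 2.98 in the RUES2-labelled libraries, which overlap.

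Of the 30 listed markers of the naive state only 21 passed the filter of 1 FPKM and were tested. Of these 21, 4 were higher and 4 lower (19% each), with a median log2 difference of 0.16, and without naive H9 replicate 1 the counts were 0 and 2. ALPPL2, a placental-type alkaline phosphatase that marks human naive cells, was at 6.37, 3.82 and 6.80 FPKM in H9 and at 1.87, 0.827 and 0.775 in the RUES2-labelled libraries (-1.63 ± 0.26, adjusted p = 0.00996). KHDC1L, a relative of KHDC3L, was at 3.77, 2.10 and 2.06 against 0.766, 0 and 0, though its call was lost without naive H9 replicate 1 (adjusted p = 0.0545). KLF4, a naive-state factor, was at 1.65, 0.994 and 1.81 FPKM against 6.24, 3.60 and 4.04, and its call was likewise lost without naive H9 replicate 1 (adjusted p = 0.0530). DNMT3L, the cofactor of the de novo DNA methyltransferases, was at 14.9, 9.43 and 16.7 against 74.7, 32.1 and 25.3. Its groups did not overlap, but its call (log2 difference 1.497 ± 0.42, adjusted p = 0.0472) was lost without any of the 3 H9 replicates or RUES2-labelled replicate 1 or 2 (adjusted p between 0.0548 and 0.129). TFAP2C, at 17.7, 17.8 and 19 FPKM in H9 and 20.8, 16.8 and 17.3 in the RUES2-labelled libraries, had a log2 difference of 0.00 (adjusted p = 0.986).

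Of 23 tested genes of the primed state, 3 were higher and 5 lower (13% and 21.7%, median -0.10), and 1 and 1 were called without naive H9 replicate 1. CYTL1, a secreted cytokine-like protein, rose from 0.566, 0.535 and 0.185 FPKM to 2.79, 3.70 and 3.12 (1.56, adjusted p = 0.0031). SALL1, a zinc-finger factor, was at 21, 19.3 and 21 against 11.8, 10.3 and 14 (-0.73, adjusted p = 0.00906). CRABP2, which carries retinoic acid, was abundant in H9 (414, 441 and 440 FPKM) and at 183, 144 and 261 in the RUES2-labelled libraries, with the call lost without naive H9 replicate 1 (adjusted p = 0.0521). DNMT3B, the de novo methyltransferase typical of primed cells, was at 73.9, 75.8 and 83.6 against 71.3, 55.7 and 56.9 and was not called (adjusted p = 0.0644). In primed cells its means were 317 and 405 FPKM, so both naive groups were well below the primed groups.

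Of 31 tested targets of WNT and beta-catenin, 3 were higher and 10 lower in the RUES2-labelled libraries (9.68% and 32.3%), with a median log2 difference of -0.62 against 0.02 over all genes. With 1 library left out that median was between -0.87 (without RUES2-labelled replicate 3) and -0.39 (without replicate 2). The feedback gene NKD1 was at 16.9, 15.3 and 16.6 FPKM in H9 and at 5.11, 4.31 and 6.58 in the RUES2-labelled libraries (-1.46 ± 0.13, adjusted p = 0.00303). FZD10, a WNT receptor, was at 19, 19.2 and 19.7 against 5.40, 3.87 and 6.95 (-1.69, adjusted p = 0.00363). AXIN2, the scaffold of the complex that degrades beta-catenin, was at 46.5, 44.7 and 48.3 against 25.7, 19.6 and 30.6 (-0.88 ± 0.15, adjusted p = 0.0129), and its call was lost without naive H9 replicate 1 (adjusted p = 0.0559). In these 3 genes every RUES2-labelled library was below every H9 library, and in primed cells all 3 were lower than in either naive group, with AXIN2 at means of 7.49 and 10.9 FPKM. TBX6, a T-box factor of the presomitic mesoderm, was at 1.35, 1.17 and 1.33 against 0.258, 0.0936 and 0.264. MYC is itself on this list and went the other way. With single libraries left out, 5 to 13 targets were called lower, the fewest without naive H9 replicate 1.

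Among 29 tested WNT ligands, receptors and antagonists, 6 were higher and 4 lower (20.7% and 13.8%), with 2 and 1 called without naive H9 replicate 1. The receptor FZD5 was at 3.34, 3.78 and 2.85 FPKM against 19.8, 16.6 and 10.5 (1.91, adjusted p = 0.00467), the opposite direction to FZD10. The secreted WNT inhibitor WIF1 was at 0.0443, 0.105 and 0.0580 against 2.18, 4.33 and 2.63 (1.89, adjusted p = 0.00374). WNT11, a ligand, was at 1.75, 0.803 and 2.60 FPKM against 5.13, 7.15 and 4.08, and its call was lost without naive H9 replicate 1 (adjusted p = 0.0854), among others.

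Of 20 tested MEK and ERK targets 2 were higher and 3 lower (10% and 15%), and the median log2 difference was 0.03. Without naive H9 replicate 1 the counts were 1 and 2. MYC, with its log2 difference of 3.98, was 1 of the 2 higher genes. DUSP6, an ERK phosphatase that reports pathway activity, was at 1.58, 1.28 and 0.959 FPKM in H9 and at 1.78, 0.897 and 1.86 in the RUES2-labelled libraries (adjusted p = 0.657), below its primed means of 35.9 and 10.03. CCND1, cyclin D1, was at 66.1, 71.7 and 68.5 against 48.0, 45.6 and 51.5 (-0.50, adjusted p = 0.00593), and the receptor gene EPHA2 at 20.2, 20.0 and 19.1 against 12.7, 12.3 and 12.9 (-0.60, adjusted p = 0.00293). The ERK antagonist SPRY1 was at 2.41, 2.17 and 2.74 FPKM against 4.79, 5.38 and 3.91, and its call was lost without naive H9 replicate 1 (adjusted p = 0.0542).

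Of 17 tested targets and components of LIF and STAT3 signalling, 7 were higher and 2 lower (41.2% and 11.8%), with a median of 0.41. Only 1 and 1 of these calls were left without naive H9 replicate 1, and 2 and 1 without RUES2-labelled replicate 1. JUNB, an immediate-early factor, was at 2.93, 2.67 and 3.17 FPKM against 6.64, 8.72 and 7.33 (1.12, adjusted p = 0.00357). The homeobox gene GBX2 was at 31.3, 28.7 and 36.1 against 15.2, 11.7 and 17.0 (-1.09, adjusted p = 0.00694). SOCS3, the feedback inhibitor most directly induced by STAT3, was at 11.5, 8.79 and 14 against 14.2, 10.6 and 20.8 and was not called (adjusted p = 0.35). LIFR, the LIF receptor, was at 2.96, 1.60 and 3.87 against 6.94, 6.49 and 5.80, with the call lost without naive H9 replicate 1 (adjusted p = 0.0811), among others.

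In the TGF-beta and NODAL pathway, 2 of 23 tested genes were higher and 1 lower (8.70% and 4.35%, median 0.09), or 1 and 1 without naive H9 replicate 1. Over all genes the shares were 15.3% and 7.94%. FST, follistatin, which binds activin, was at 244, 243 and 248 FPKM in H9 and at 84.4, 76.9 and 134 in the RUES2-labelled libraries (-1.35, adjusted p = 0.00852). INHBE, an inhibin subunit gene, was at 0.349, 0.405 and 0.332 against 1.51, 1.65 and 2.51 (1.07, adjusted p = 0.00657). In the BMP pathway 5 of 21 were higher and 1 lower (23.8% and 4.76%, median 0.01), or 3 and 0 without naive H9 replicate 1. The transducer SMAD9 was at 0.245, 0.256 and 0.487 FPKM against 3.07, 4.80 and 2.30 (1.69), and the inhibitory SMAD6 at 2.19, 1.70 and 2.89 against 6.91, 7.16 and 5.05 (1.18). ID3, a direct BMP target, was at 55.2, 43.8 and 58.7 against 23.8, 22.6 and 36.1, in the opposite direction, and its call was lost without naive H9 replicate 1 (adjusted p = 0.0860), among others.

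HOX genes pattern the body axis. Of 27 tested, 7 were higher and 3 lower (25.9% and 11.1%, median 0.07), or 5 and 2 without naive H9 replicate 1. HOXD10 was at 0.113, 0.133 and 0.166 FPKM in H9 and at 3.34, 7.35 and 3.19 in the RUES2-labelled libraries (2.23, adjusted p = 0.0051), and HOXD11 at 0.215, 0.211 and 0.164 against 3.79, 7.92 and 2.68 (2.17). HOXD13 (1.29, 0.852 and 1.501 against 6.24, 10.1 and 5.39) and HOXD9 (0.161, 0.127 and 0.158 against 2.64, 4.27 and 2.18) did the same. All 4 are neighbours on chromosome 2, and replicate 2 was highest in each. In primed cells the means of all 4 were under 0.1 FPKM. HOXB1, an anterior gene, was lower, at 28.9, 40.5 and 26.1 FPKM against 8.18, 8.25 and 12.9 (-1.61, adjusted p = 0.00701). HOXB1 was chosen after its values were seen.

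Markers of other cell types were looked at beside these, and over all tested genes 15.3% were higher and 7.94% lower. For the 30 tested fibroblast and stromal genes 0 were higher and 1 lower (3.33%), or 7 lower without RUES2-labelled replicate 3, and the summed level of the list ranged from 1564 to 2212 FPKM in H9 and from 1102 to 3046 in the RUES2-labelled libraries. S100A4 was the lower gene, at 8.78, 8.12 and 10.2 against 3.47, 3.08 and 5.11. The core pluripotency list summed to 1856 to 2010 FPKM in H9 and 2085 to 2623 in the RUES2-labelled libraries, the trophectoderm and amnion list to 923 to 1388 and 695 to 1265. Of the 18 endothelial and blood markers 14 were under 1 FPKM in all 6 libraries. This held for 0 of 31 fibroblast and stromal, 0 of 16 primitive endoderm and 1 of 15 definitive endoderm genes. It held for 2 of 23 mesendoderm, 4 of 15 neural crest, 11 of 20 neural ectoderm and 11 of 29 trophectoderm and amnion genes. PECAM1, an endothelial adhesion molecule also found in naive stem cells, was the called 1 of 4 tested, at 0.206, 0.232 and 0.240 FPKM against 3.55, 5.29 and 1.02, with the call lost without naive H9 replicate 1 (adjusted p = 0.102), among others.

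Of 10 tested definitive endoderm genes 5 were higher and 0 lower (50.0%, median 0.94), or 2 without any 1 of the naive H9 replicates, and the list summed to 58.5 to 84.9 FPKM in H9 and to 123 to 265 in the RUES2-labelled libraries. SOX17, the endoderm and germ-cell factor, was at 0.483, 0.595 and 0.495 FPKM against 8.40, 4.48 and 4.22 (2.08, adjusted p = 0.00426), and FOXA3 at 0.909, 0.656 and 0.711 against 2.77, 2.10 and 1.81 (0.87, adjusted p = 0.00894). Replicate 1 was the highest in both, in contrast to MYC and NANOG. The secreted NODAL antagonist CER1 was at 58.2, 49.3 and 36.5 against 195, 92.9 and 86.5, and its call was lost without any 1 of the naive H9 replicates (adjusted p between 0.0867 and 0.112), among others. CER1 alone made up a large part of the summed level of the list, so that sum says little about the other genes. GATA4 did not differ in this test, at 8.94, 5.69 and 12.3 against 11.4, 6.40 and 10.8 (adjusted p = 0.841). In the primitive endoderm list 2 of 15 were higher (13.3%, against 15.3% of all genes) and 0 lower. These were SOX17 and the laminin gene LAMA4 (0.188, 0.216 and 0.279 against 3.34, 3.43 and 1.49, adjusted p = 0.00838).

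TWIST1, a neural crest and mesenchyme factor, was at 3.05, 3.27 and 3.71 FPKM in H9 and at 18.3, 23.5 and 18.8 in the RUES2-labelled libraries (2.28 ± 0.11, adjusted p = 0.000413), 1 of the most even differences among the lineage genes. NR2F1 was at 1.32, 1.16 and 0.700 against 5.42, 11.7 and 5.19 (1.96, adjusted p = 0.00894). Of 10 neural crest genes tested 2 were higher and 1 lower (20% and 10%, against 15.3% and 7.94% of all genes). Without naive H9 replicate 1 the counts were 2 and 0. In the neural ectoderm list 4 of 9 were higher and 3 lower (44.4% and 33.3%), or 0 and 1 without naive H9 replicate 1. NES, the intermediate filament nestin, was at 93.1, 100.1 and 87.1 against 53.3, 40.4 and 58.2 (-0.89, adjusted p = 0.00973). POU3F1, at 1.02, 1.66 and 0.639 against 4.81, 7.54 and 3.74, lost its call without naive H9 replicate 1 (adjusted p = 0.0522).

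Of 20 mesendoderm genes tested, 3 were higher and 4 lower (15% and 20%, against 15.3% and 7.94% of all genes, median -0.12). Without naive H9 replicate 1 the counts were 1 and 2. ISL1 rose from 0.269, 0.127 and 0.235 FPKM to 2.08, 3.00 and 1.40 (1.35, adjusted p = 0.00734). MSGN1, a presomitic mesoderm factor, was at 2.98, 1.55 and 3.98 against 0.109, 0.132 and 0.496, but lost its call without naive H9 replicate 1 (adjusted p = 0.0537). T (brachyury), at 13, 14.5 and 12.7 against 18.5, 9.48 and 17.6, was not called (adjusted p = 0.75), and HAND1, at 38.6, 14.5 and 72.7 against 26.9, 11.9 and 36.4, was not called either (adjusted p = 0.537). Of 17 trophectoderm and amnion genes tested 2 were higher and 1 lower (11.8% and 5.88%, median -0.28), or 2 and 0 without naive H9 replicate 1. DLX5 was the better supported of these, at 0.886, 0.610 and 0.725 against 4.22, 6.09 and 3.65 (1.68, adjusted p = 0.00359). Among epithelial and junction genes, 7 of 21 were higher and 1 lower (33.3% and 4.76%, median 0.39), but 1 and 0 were called without naive H9 replicate 1. The splicing regulator ESRP1 was at 3.03, 2.41 and 3.49 against 18.1, 10.9 and 9.66 (1.77, adjusted p = 0.00641). E-cadherin, CDH1, was at 3.61, 2.36 and 4.06 against 13.9, 7.47 and 8.88, with the call lost without naive H9 replicate 1 (adjusted p = 0.0574). Both naive groups were far below the primed means of CDH1, 53.7 and 78.7 FPKM.

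**Figure D3:**
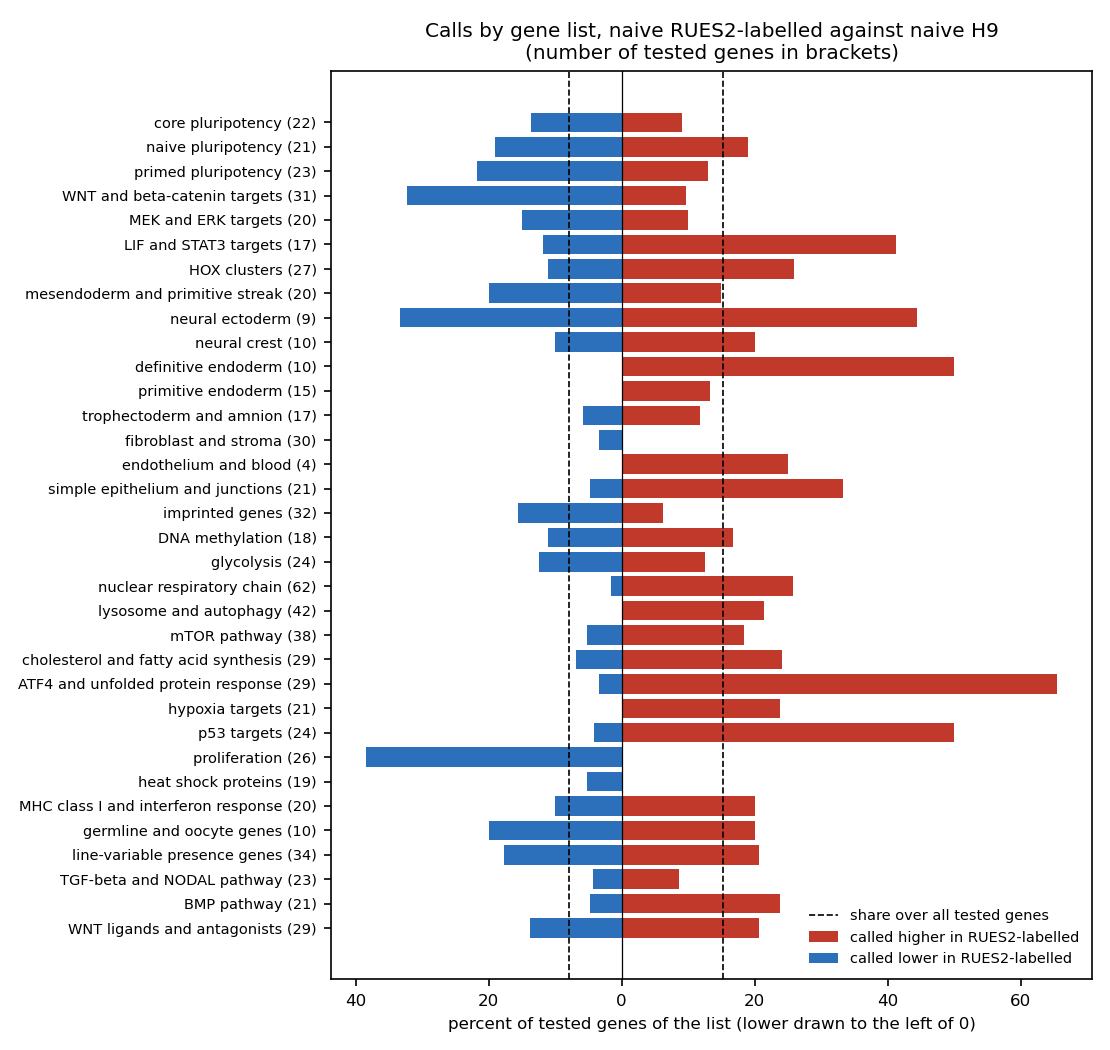
Bars give, for each of 34 gene lists, the percent of its tested genes called higher (red, to the right) or lower (blue, to the left) in naive RUES2-labelled libraries, with the number tested in brackets. Dashed lines mark the shares over all tested genes, 15.3% higher and 7.94% lower; the ATF4 list reaches 65.5% higher and the proliferation list 38.5% lower.

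The medians of 11 of the 34 lists changed sign when 1 library was left out, so their direction is not given as a result. For trophectoderm and amnion the median was -0.51 without RUES2-labelled replicate 3 and 0.13 without replicate 2, and for fibroblast and stroma -0.41 and 0.29. It was -0.05 for naive pluripotency without RUES2-labelled replicate 1, and for HOX genes -0.06 without naive H9 replicate 2 and 0.37 without replicate 3. For primitive endoderm it was -0.07 without naive H9 replicate 2 and 0.32 without replicate 3, and for mesendoderm 0.01 without replicate 3. For MEK and ERK targets, the BMP pathway and WNT ligands it was -0.07, -0.04 and -0.08 without RUES2-labelled replicate 1. For primed pluripotency it was 0.0041 without naive H9 replicate 2, and for imprinted genes 0.0026 without RUES2-labelled replicate 2.

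ATF4 is the transcription factor through which cells answer amino acid shortage and stress of the endoplasmic reticulum, by making amino acids and transporters. Of 29 tested genes of ATF4 and the unfolded protein response 19 were higher and 1 lower (65.5% and 3.45%, against 15.3% and 7.94% of all genes), and the median log2 difference was 0.53. With any 1 library left out, 14 to 19 were called higher, and 14 were called higher in all these comparisons. ASNS, asparagine synthetase, was at 29.4, 29 and 29.5 FPKM in H9 and at 88.5, 88.6 and 91.4 in the RUES2-labelled libraries. The 3 libraries of each label lay within a few FPKM of each other, without the order of replicates seen in MYC. The log2 difference was 1.58 ± 0.04 (adjusted p = 6.63e-05).

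ALDH1L2, a mitochondrial enzyme of folate metabolism, was at 1.14, 0.977 and 1.29 FPKM against 9.63, 14.8 and 10.01 (2.53 ± 0.17, adjusted p = 0.00113). STC2, a secreted glycoprotein induced by stress, was at 2.74, 2.42 and 2.63 against 11.7, 13.1 and 13.6 (1.94 ± 0.08, adjusted p = 0.000187). TRIB3, a pseudokinase that restrains ATF4, was at 2.36, 1.75 and 2.26 against 8.24, 8.52 and 7.99 (1.57 ± 0.10, adjusted p = 0.000896). In all 3 genes each RUES2-labelled library was at least 3 times every H9 library. ATF4 itself was higher by 0.37 (adjusted p = 0.00732). The endoplasmic reticulum chaperone HSPA5 was not called (0.06, adjusted p = 0.635), and SLC7A11, the cystine transporter, was the gene that was lower (-0.86, adjusted p = 0.0183, a call lost with at least 1 of the libraries left out). ATF4, HSPA5 and SLC7A11 were named after their values were seen. In primed cells the same list had a median difference of 0.35, with 0 genes called.

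ATF4 binds composite elements of a C/EBP and an ATF part, whose core was searched here as TGATGNAA on both strands of the 250 bases before each gene's RefSeq start (GRCh38.p14). Of the 25 list genes with a window 5 held it (20.0%), against 3.89% of all 27305 genes with a window and 2.27% of the 9766 tested genes matched by symbol. ASNS and CHAC1 were called higher, and ATF3, HERPUD1 and CEBPG were not called. CHAC1, which degrades glutathione, had a log2 difference of 1.40 (adjusted p = 0.000896). The windows of these ASNS and CHAC1 genes are printed with the match in capitals, ASNS on the minus strand of chr7:97872409-97872658 and CHAC1 on the plus strand of chr15:40953221-40953470. The match begins 68 bases before the start in ASNS and lies on the opposite strand, 209 bases before the start, in CHAC1.
ASNS: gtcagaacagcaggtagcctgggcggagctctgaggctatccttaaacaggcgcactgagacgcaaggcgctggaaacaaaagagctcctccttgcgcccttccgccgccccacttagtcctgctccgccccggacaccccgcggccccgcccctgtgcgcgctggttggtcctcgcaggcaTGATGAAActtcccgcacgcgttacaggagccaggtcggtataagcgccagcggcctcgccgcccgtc
CHAC1: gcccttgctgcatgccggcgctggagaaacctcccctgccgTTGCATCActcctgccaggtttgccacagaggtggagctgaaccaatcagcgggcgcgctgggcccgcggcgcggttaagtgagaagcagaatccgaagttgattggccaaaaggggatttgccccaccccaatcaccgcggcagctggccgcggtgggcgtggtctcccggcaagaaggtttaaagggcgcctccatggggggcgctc
A match of letters is a description and does not show that the factor is bound.

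Of 24 tested p53 targets 12 were higher and 1 lower (50.0% and 4.17%, median 0.38), but 2 and 0 were called without naive H9 replicate 1, and 4 and 0 without replicate 2. GDF15, a stress-induced cytokine, was at 1.67, 1.60 and 2.46 FPKM against 9.92, 5.86 and 10.03 (1.70, adjusted p = 0.00593), and TP53INP1 at 2.86, 2.65 and 2.55 against 5.26, 4.65 and 4.34 (0.64, adjusted p = 0.0069). CDKN1A, the cell-cycle inhibitor p21, was at 14.4, 12.9 and 24.5 against 34.4, 41.2 and 56.9, and its call was lost without naive H9 replicate 1 (adjusted p = 0.0826) or 2 (adjusted p = 0.0675). Of 21 hypoxia targets 5 were higher and 0 lower (23.8%, median 0.16). These included VEGFA, the vascular growth factor, at 5.04, 4.19 and 4.77 against 11.1, 11 and 9.74 (1.03, adjusted p = 0.00271), and the carbonic anhydrase CA12, at 1.47, 1.14 and 1.47 against 6.09, 10.8 and 5.26 (1.77, adjusted p = 0.00679).

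Of 26 tested proliferation genes 0 were higher and 10 lower (38.5%, median -0.16). A positive difference was found in 1 of the 26, against 52.8% of tested genes on the autosomes other than chromosome 1. Without naive H9 replicate 1 or 2 the count was 2, and in the fit of all 12 libraries it was also 2. FOXM1, a driver of the G2/M programme, was at 47.9, 46.7 and 47.3 FPKM against 36.0, 36.7 and 37.6 (-0.35 ± 0.05, adjusted p = 0.00631). TYMS, thymidylate synthase, was at 73.3, 78.1 and 83.5 against 55.3, 57.9 and 63.1 and lost its call without naive H9 replicate 2 (adjusted p = 0.0557). BUB1, a checkpoint kinase, was at 66.2, 65.7 and 64.2 against 54.2, 47.4 and 48.9 and lost its call without naive H9 replicate 1 (adjusted p = 0.0590). Heat shock proteins were nearly level, with 0 of 19 higher and 1 lower (5.26%, against 7.94% of all genes), or 0 and 0 without naive H9 replicate 1.

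Of 62 nuclear genes of the respiratory chain 16 were higher and 1 lower (25.8% and 1.61%, median 0.19), and 3 and 1 were called without naive H9 replicate 1. A positive difference was found in 56 of the 62, against 52.8% of tested genes on the autosomes other than chromosome 1. SDHC, a subunit of complex II, was at 37.2, 36.6 and 38.1 FPKM against 66.3, 74.1 and 54.7 (0.77, adjusted p = 0.00766). It lies in the part of chromosome 1 described further on. ATP5H, a subunit of ATP synthase on chromosome 17, was at 227, 231 and 237 against 333, 318 and 316 (0.47 ± 0.05, adjusted p = 0.00408). The exception was UQCRFS1, the Rieske protein of complex III, at 132, 148 and 139 against 86.3, 96.1 and 79.8 (-0.67, adjusted p = 0.00567). Of 24 glycolysis genes 3 were higher and 3 lower (12.5% each, median 0.04), or 1 and 1 without naive H9 replicate 1. Over all genes the shares were 15.3% and 7.94%. The called genes included HK1, at 53.6, 59.6 and 61.4 against 37.1, 36.0 and 41.6 (-0.59, adjusted p = 0.00687), and PFKL, at 39.8, 37.0 and 41.2 against 58.8, 51.7 and 54.6 (0.47, adjusted p = 0.00824).

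In the mTOR pathway 7 of 38 genes were higher and 2 lower (18.4% and 5.26%, median 0.08), close to the shares over all genes. MTOR itself was at 19.4, 18.3 and 20.01 FPKM against 16.1, 17.3 and 15.5 and was not called (-0.23 ± 0.07, adjusted p = 0.0507). EIF4EBP1, the translation repressor that mTOR phosphorylates, was at 69.9, 70.7 and 79.2 against 133, 158 and 133 (0.93, adjusted p = 0.00357), and the adaptor IRS2 at 1.34, 1.08 and 0.851 against 3.77, 5.33 and 3.41 (1.30, adjusted p = 0.00575). Without naive H9 replicate 1 or 2, 3 genes were higher and 0 lower. Of 42 lysosome and autophagy genes 9 were higher and 0 lower (21.4%, median 0.10), or 3 without naive H9 replicate 1. GAA, acid alpha-glucosidase, was at 3.93, 3.36 and 3.31 against 9.81, 13.1 and 10.1 (1.40, adjusted p = 0.00293), and the GTPase RRAGD at 0.706, 0.484 and 0.568 against 1.90, 3.33 and 2.36 (1.14, adjusted p = 0.00734).

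Of 29 genes of cholesterol and fatty acid synthesis 7 were higher and 2 lower (24.1% and 6.90%, median 0.15), or 2 and 1 without naive H9 replicate 1 and 1 and 1 in the fit of all 12 libraries. MVD, mevalonate decarboxylase, was at 25.3, 23.9 and 26.9 FPKM against 50.5, 58.0 and 57.3 (1.09 ± 0.08, adjusted p = 0.00134).

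Imprinted genes are transcribed from 1 parental copy. Of 32 tested 2 were higher and 5 lower (6.25% and 15.6%, median -0.09), and 1 and 2 were called without any 1 of the naive H9 replicates. NDN, necdin, transcribed from the paternal copy of chromosome 15 (23930554 to 23932450, hg19), was at 23, 24.1 and 23.6 FPKM in H9 and at 0.802, 0.972 and 0.803 in the RUES2-labelled libraries (-3.73 ± 0.07, adjusted p = 1.55e-05). Every RUES2-labelled library was under 1 FPKM and every H9 library above 20. Of 6 other tested genes within 1 Mb, short RNAs aside, 5 were called lower, and the median of the 6 was -0.81. They included NIPA1 and NIPA2, magnesium transporter genes outside the imprinted domain, with log2 differences of -0.80 and -0.88, and the near-identical pseudogenes HERC2P2 and HERC2P7, whose reads are uncertain. Of the 6, MKRN3 was not called, at 1.13, 1.44 and 2.01 FPKM against 1.12, 1.87 and 0.822 (-0.17, adjusted p = 0.582). The imprinted neighbour MAGEL2 was low under both labels, at 0.363, 0.364 and 0.346 against 0.101, 0.0609 and 0.103 FPKM, and was not tested. SNRPN, farther along the same domain, was at 251, 243 and 244 against 229, 201 and 230 and was not called (adjusted p = 0.132). NNAT, neuronatin, was at 40.2, 41.9 and 57.2 against 7.11, 6.78 and 11.2 (-2.35, adjusted p = 0.00303). PEG10, a retrotransposon-derived gene, was at 27.0, 29.3 and 23.3 against 43.2, 53.5 and 41.6 (0.77, adjusted p = 0.010), while its neighbour SGCE was at 11.4, 10.6 and 11 against 7.70, 6.53 and 8.37, a call lost without any 1 of the naive H9 replicates (adjusted p up to 0.0726).

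Of 18 genes that write, read or erase DNA methylation 3 were higher and 2 lower (16.7% and 11.1%), or 0 and 0 without naive H9 replicate 1. Over all genes the shares were 15.3% and 7.94%. UHRF1, which recruits the maintenance methyltransferase, was at 45.6, 46.9 and 42.1 FPKM against 28.6, 34.2 and 32.7 (-0.49), with the call lost without naive H9 replicate 1 (adjusted p = 0.0583). Of 10 tested germline and oocyte genes 2 were higher and 2 lower (20.0% each), or 1 and 2 without naive H9 replicate 1. KHDC3L, described above, and TCL1B (18.7, 24.3 and 18.1 against 5.65, 4.09 and 3.02, adjusted p = 0.00359) were the lower genes. Of 20 genes of antigen presentation and the interferon response 4 were higher and 2 lower, or 1 and 2 without any 1 of the naive H9 replicates. B2M, the light chain of MHC class I, was at 43.8, 45.2 and 50.9 against 104, 154 and 169 (1.56, adjusted p = 0.00467). IFITM2, an antiviral membrane protein, was at 181, 201 and 188 against 106, 85.3 and 105 (-0.95, adjusted p = 0.00374). HLA-C was lower by -0.75 (adjusted p = 0.00942), but the MHC genes have alternative haplotype copies in the genome build, which makes their FPKM uncertain. Among 34 tested genes known to be present or absent by cell line, 7 were higher and 6 lower (20.6% and 17.6%), or 2 and 1 without naive H9 replicate 1. The zinc-finger gene ZNF595 was at 0.728, 0.697 and 0.598 against 4.41, 3.57 and 4.15 (1.59, adjusted p = 0.000851), and TSTD1 at 17.1, 17.4 and 20.0 against 4.34, 5.61 and 8.16 (-1.48, adjusted p = 0.00648).

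Differences were also summed along the chromosomes, in 235 windows of 10 Mb with at least 20 tested genes. On the long arm of chromosome 1, the 601 tested genes with starts beyond 140 Mb, a limit set after the windows were seen, had a median log2 difference of 0.28, and 80.2% of them had a positive difference. Of these genes 227 were higher and 31 lower (37.8% and 5.16%), against 14.4% and 8.01% over the other autosomes. The 735 genes before 130 Mb on the same chromosome had a median of 0.00, with 11.8% higher and 9.25% lower. By library, the median difference from the naive H9 mean was 0.25, 0.38 and 0.22 in RUES2-labelled replicates 1, 2 and 3 and 0.01, -0.01 and 0.01 in the H9 replicates. All 3 RUES2-labelled libraries were above all H9 libraries, which is a description, since the stretch was chosen for its difference. Between the primed libraries the median of these genes was 0.01.

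Among the 416 of these genes with a mean of at least 5 FPKM in naive H9, the median ratio to naive H9 was 1.21. Of the 9 windows with the highest medians, 8 were on this arm, from 0.24 to 0.41, and the other was a window of 20 genes on chromosome 2 from 160 to 170 Mb, at 0.37. Within the stretch the windows that ended at 150 Mb, at 0.15, and at 210 Mb, at 0.10 with 17 genes higher and 11 lower, were well below these. DNA copy number was not measured here. The ATF4 list had 0 higher genes in this stretch and the p53 list 0, while the respiratory chain had 2 of its 16.

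The lowest window was on chromosome 15 from 20 to 30 Mb, which contains NDN. Its 52 tested genes had a median log2 difference of -0.49, with 19.2% positive, 2 higher and 13 lower (25.0%). By library the medians were -0.29, -0.49 and -0.35 in the RUES2-labelled libraries and 0.00, 0.00 and 0.00 in H9. This too is a description, since the window was picked as the lowest. Without short RNAs, which make up much of this window, 29 genes remained and the median was -0.26. UBE3A, in the same window, was at 23.5, 22.5 and 21.5 FPKM against 22.3, 20.7 and 21.5 and was not called (adjusted p = 0.475). The next lowest window, on chromosome 10, was at -0.15.

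**Figure D4:**
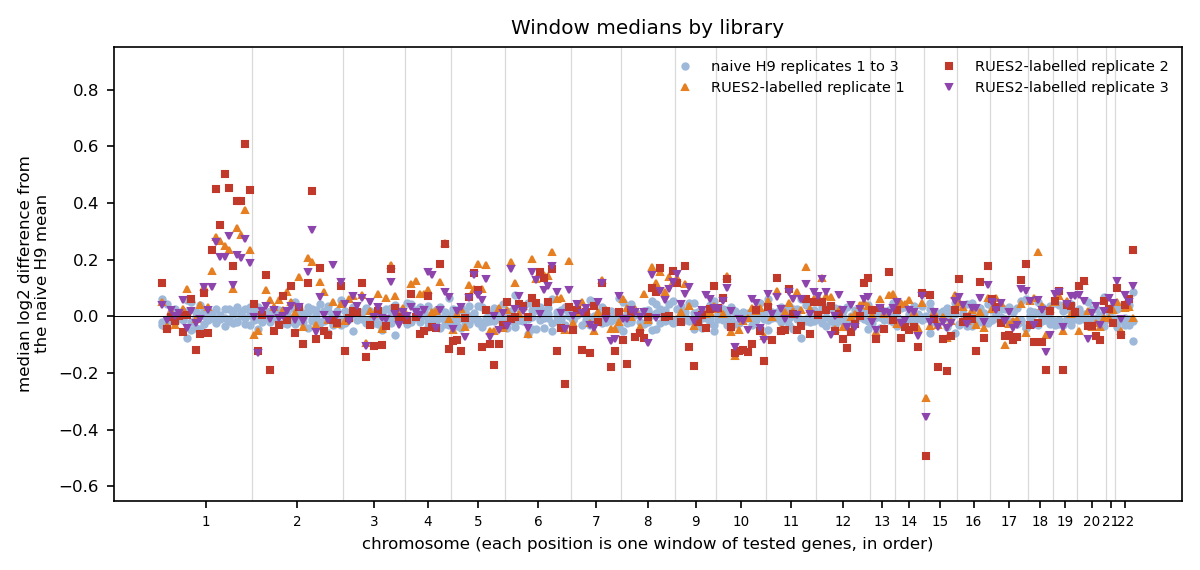
Each position on the horizontal axis is 1 of 235 windows in chromosome order, and each point is 1 library's median log2 difference from the naive H9 mean over the tested genes of that window. The RUES2-labelled libraries rise along the later windows of chromosome 1, most in replicate 2, and fall in the first window of chromosome 15, where the 3 medians are -0.29, -0.49 and -0.35.

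Some genes were present under 1 label and practically absent under the other. Taking a mean of 5 FPKM or more in 1 group and under 0.5 FPKM in each library of the other, 103 genes were on in the RUES2-labelled libraries and 75 in H9. Most were short RNAs (80 and 70), which polyadenylated libraries sample poorly: 66 of the 80 and 56 of the 70 were above 0.5 FPKM in a single library. Without these, an exclusion made after the values were seen, 23 genes were on in the RUES2-labelled libraries and 5 in H9. The exclusion went by name and left SNAR-G1, a small noncoding RNA listed at 8.02, 0 and 9.14 FPKM in the RUES2-labelled libraries, among the 23. In 19 of the 23 replicate 2 was the highest, as it was in 65.1% of all genes called higher and 37.4% of all tested genes. The rule uses a group mean, which a high replicate 2 raises. Besides those already described, PLA2G4A, a cytosolic phospholipase, was at 0.397, 0.137 and 0.292 FPKM in H9 and at 8.41, 16.0 and 7.01 in the RUES2-labelled libraries, and the meiosis gene MEIOB at 0.239, 0.176 and 0.0390 against 6.25, 11.7 and 5.80. JAG2, a NOTCH ligand, was at 0.336, 0.359 and 0.342 against 5.71, 12.4 and 4.85, and GABRA2, a GABA receptor subunit, at 0.219, 0.305 and 0.453 against 5.88, 11.5 and 4.34. The noncoding LINC00668 was at 0.204, 0.138 and 0.235 against 7.95, 12.2 and 5.37.

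Of these 23 genes 11 had means under 0.5 FPKM in both primed groups, and 10 had means of at least 0.5 in both. The 5 genes on in H9 alone were CBR1, LECT1, KHDC3L, C9orf64 and GLT1D1, and 4 of them, all but KHDC3L, had means of at least 1 FPKM in both primed groups. For CBR1, LECT1 and C9orf64 the naive RUES2-labelled group was the 1 group of the 4 in which the gene was near silent. GLT1D1 was at 0.137, 5.32 and 0.0665 FPKM in the primed RUES2 libraries, so that replicate 2 alone carried its mean there.

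The primed libraries share no sample with the naive comparison, and fewer genes were called between them. Their spread was also larger, with a median SD of log2(FPKM + 1) of 0.17 in primed H9 and 0.14 in primed RUES2, so that a difference of a given size was harder to call. Between primed RUES2 and primed H9, 15 of the same 12740 genes were called (0.118%), and 1147 had an unadjusted p under 0.05, against 5028 in the naive comparison. Of the 15 genes, 14 had the same sign in the naive state and 11 were also called there in that direction, which is 73.3% of the primed calls and 0.371% of the naive calls. They included C7orf29, at a log2 difference of 2.08 in primed and 1.98 in naive cells, ZNF736, at 1.82 and 1.76, IFITM2, at -1.77 and -0.95, and SMIM3, at -2.22 and -3.69. ZNF736, a zinc-finger gene, was at 0.0563, 0.0374 and 0.0304 FPKM in naive H9 and at 2.69, 2.37 and 2.51 in the naive RUES2-labelled libraries, with no order among replicates. Over the 2967 naive calls 61.8% had the same sign in the primed comparison, against 55.2% of all tested genes. These members were chosen after their values were seen. With the replicate number as a block, 0 genes were called between the primed groups.

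The size of the line label difference differed between the states for 695 genes (5.46%) in a test of the difference itself over the 12 libraries. Libraries under the RUES2 label did not all match in the label check, so state and cell identity cannot be told apart in this test. It was greater in the naive state, counted with its sign, for 507 genes (3.98%) and smaller for 188 (1.48%). Of the 523 naive calls with a log2 difference of at least 1 in size, 307 were among the 695. These 523 were chosen by a difference that the test uses again, so this share was partly fixed by that choice. The same holds for genes named below because of their naive difference. MYC differed by -0.60 in primed cells (means of 31.3 FPKM in H9 and 19.5 in RUES2) and by 3.98 in naive cells (interaction adjusted p = 0.00121). NANOG differed by -0.60 in primed and 2.65 in naive cells (interaction adjusted p = 0.00495). For CSRP1 the difference was 2.83 in primed cells, not called (adjusted p = 0.18), and -2.81 in naive cells (interaction adjusted p = 0.00243). ASNS was higher in both, by 0.67 and 1.58 (interaction adjusted p = 0.00345), with primed means of 78.9 FPKM in H9 and 127 in RUES2. For NDN, -1.49 in primed and -3.73 in naive cells, the difference between states was not called (interaction adjusted p = 0.15), nor was it for NNAT (-1.95 and -2.35, adjusted p = 0.871). The count of 695 fell to 340, 373, 388 and 354 without naive H9 replicate 1, 2 or 3 or primed RUES2 replicate 1.

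**Figure D5:**
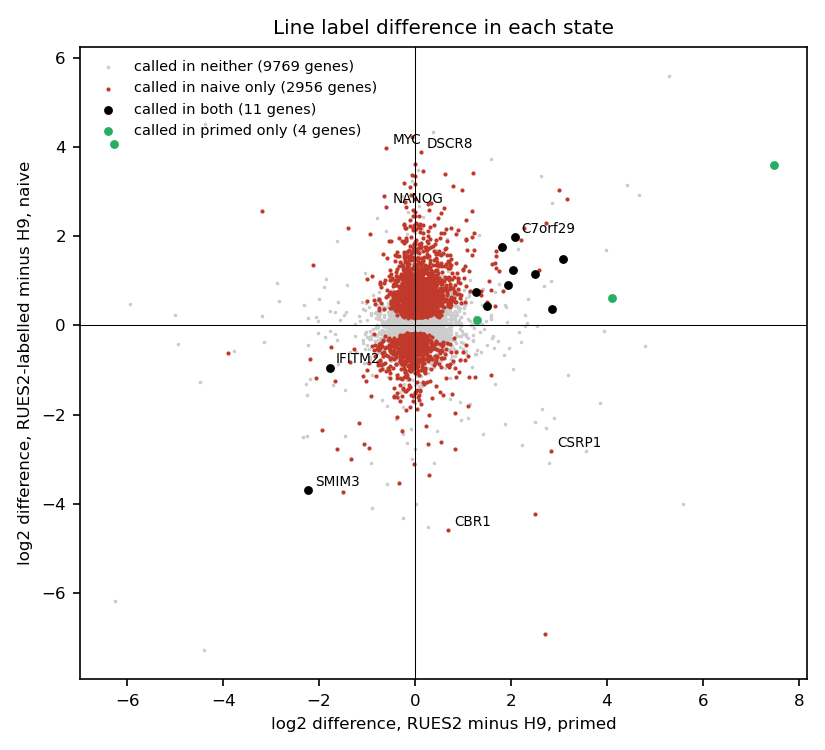
Each point is 1 of the tested genes, with its log2 difference RUES2 minus H9 in primed cells on the horizontal axis and in naive cells on the vertical axis. The cloud is taller than wide, MYC and NANOG lie to the left of 0 in primed cells and far above 0 in naive cells, and the 11 genes called in both states (black) lie in the quadrants of equal sign.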

How the data were processed

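RNA from 12 libraries (3 for each state and line label) had been sequenced, and 6 of them make the naive comparison. The FPKM values were made and deposited by the authors, 1 table per library. The submitters' processing notes name the hg19 build, TopHat2 2.1.1 and bcl2fastq 2.17.1.14. Which program computed FPKM is not given in the sources, and no read counts were used, so that depth is known only through the deposited confidence bounds. The labels do not say that replicates came from separate cultures, so p-values may measure technical spread.

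Of gene symbols listed at several loci (61 of those tested) the entry with the highest mean was kept. Differences are RUES2-labelled minus H9 on log2(FPKM + 1), which understates changes of low genes, fitted with limma 3.58.1 (R 4.3.3, two-sided, trend in the variance) over 12740 genes, with Benjamini-Hochberg adjustment and a threshold of 0.05. All adjusted p-values are from limma. On simulated data for the naive comparison, 91% of 100 genes changed by a log2 of 1 and 89% of 100 changed by a log2 of 2 were called, and 10 of 12540 unchanged genes. The changed genes excluded those near 0 in naive H9. The noise was normal, independent and equal in spread in both groups, while the real groups differed in spread. These rates may therefore not hold for the real libraries.

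Named genes were the 12 highest and the 12 lowest differences called with any 1 library left out (group mean of at least 5 FPKM, no overlap, no short RNAs), up to 4 called members of each of 34 lists, a fixed set of markers, and up to 12 genes per direction that were on in 1 group and off in the other. Neighbours of named genes and the genes called between primed groups were named in addition, after their values were seen. The members and lists were chosen with earlier results of these data known. Promoter sequences were those of RefSeq. Alternatives were another pseudocount, 2 other filters, rescaling, a fit of all 12 libraries, the replicate number as a block, other on and off limits, and leaving out each library. Some named genes are not reported here.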

Additional observations from a re-analysis of the deposited data

Results flagged for a closer look

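Of 39 genes examined, 21 had a line label difference in naive cells that differed from the one in primed cells by the interaction test over the 12 libraries. All of the 21 but NANOG and AXIN2 came from the 12 highest or 12 lowest naive differences. They were chosen by a difference that the test uses again, so their calls were partly fixed by that choice. Over all tested genes 5.46% were called in this test. The values that follow are the naive difference minus the primed difference in log2(FPKM + 1), and the cause of these differences was not tested.

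The value was positive for MYC (4.57), LPPR4 (4.29), DSCR8 (3.77), LOC100130964 (3.63), SERPINI1 (3.44), TSPO (3.40), DNAJC12 (3.35), MATK (3.31), NANOG (3.25), SLC8A2 (3.17), CPNE7 (2.77) and SERPINF1 (2.32). It was negative for CSRP1 (-5.64), CBR1 (-5.29), LECT1 (-3.64), C9orf64 (-3.59), KHDC3L (-3.08), ART5 (-2.92), STMN2 (-1.60), SMIM3 (-1.47) and AXIN2 (-1.38). KHDC3L was near 0 in both primed groups, at means of 0.0824 and 0.0682 FPKM. Among genes lower in naive cells, the primed difference was positive for CSRP1 (2.83), C9orf64 (0.82), CBR1 (0.70), AXIN2 (0.51), LECT1 (0.29) and ART5 (0.27). Among genes higher in naive cells, it was negative for NANOG (-0.60), MYC (-0.60), TSPO (-0.22), LPPR4 (-0.07) and SERPINI1 (-0.06). None of these was called between the primed groups.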

How the results depend on the processing

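The naive count of 2967 was 1867 with a filter of 5 FPKM and 923 to 2813 with 1 library left out, the fewest without naive H9 replicate 1. The primed count of 15 was 8 with a pseudocount of 0.1 and 7 to 27 with 1 library left out, and the count of differences between states, 695, was 340 to 811. Whether replicate numbers pair the samples was not settled. Deviations of same-numbered libraries correlated at 0.03, 0.129 and 0.00 in naive and 0.04, 0.19 and 0.00 in primed cells. Between other numbers they ranged from -0.139 to 0.125 and from -0.19 to 0.14, so the replicate 2 pair was highest in each state. Deviations from a mean of 3 libraries are tied to each other, which limits these values. With the number as a block the counts were 2139 naive, 0 primed and 622 between states. Of 138 named genes called, 89 were called under every alternative that tested them, and calls lost numbered 39 without naive H9 replicate 1, 23 without replicate 2, 19 without replicate 3, 22 in the fit of all 12 libraries and 0 after rescaling or with a pseudocount of 0.1. The medians of 11 of 34 gene lists changed sign with 1 library left out. Signs reversed in 3 named genes, none of them called: TFAP2C, -0.021 after rescaling and -0.089 to 0.058 with 1 library left out, T, -0.043 to 0.40, and GATA4, -0.16 to 0.33. After rescaling, 58.7% of the naive calls were higher, against 65.9%, and the median of chromosome 1 beyond 140 Mb was 0.26. With on and off limits of 2 and 0.5 FPKM, 184 and 96 genes were on in 1 group alone, and with 5 and 1 FPKM 112 and 77. The causes of these shifts were not tested. Without read counts, differences between genes near 1 FPKM are limited by a depth that only the confidence bounds describe.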
